A study of Chlorocebus sabaeus with 12 samples.

Results

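The genes described here encode nuclear receptors other than FXR, the bile acid receptor, and its partners the RXRs, as measured in a kidney cell line that had been given a mutant human FXR. A list of 41 receptor genes was set by name, and a gene counted where the array carried a probe under that name. This found 40 genes with 66 probes among 30982 gene names with 41000 probes, and the brightest probe that passed the filter below stood for each gene. No probe was found under the name NR6A1. The cells were COS-1, an African green monkey kidney line that supports high expression of transfected plasmids. They carried human FXR with a phosphorylation-site serine replaced by alanine (S154A), which cannot be phosphorylated, or by aspartate (S154D), whose charge resembles a phosphate, for 24 h. They then received for 24 h either 0.1% DMSO, the solvent, or chenodeoxycholic acid (CDCA), a primary bile acid that activates FXR, at a dose that the labels give as 50 mM. Each of the 4 groups had 3 one-colour arrays of human 60-base probes, and no sample used here carried wild-type FXR or lacked the transfected FXR. The labels do not say that the 3 replicates were separate cultures, so the p-values measure the spread between these arrays, which may be technical.

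Nuclear receptors are transcription factors whose ligand-binding domain takes up a small lipophilic molecule and whose zinc fingers bind DNA near target genes. Lipid sensors such as LXR, PPAR, VDR and PXR act with RXR as partner, steroid receptors mostly as homodimers, and the orphan receptors have no settled ligand. Without ligand many of them hold corepressors with a histone deacetylase, and on binding ligand they exchange these for coactivators.

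Level here means the log2 of the scanner's background-subtracted intensity minus the 75th percentile of that array, so that 0 is the level of the percentile. Levels are compared only within a probe, since monkey RNA binds each human probe with its own strength. A probe was counted as detected on an array where the scanner's software marked it well above background. Genes detected on all 3 arrays of at least 1 group were tested, which left 20355 genes, 31 of them receptors, and a gene was called where the adjusted p of the fit was under 0.05. Errors of changes are standard errors of that fit, with n = 3 arrays a group, and intervals are at 95%. In bulk RNA, fewer cells that express a gene and less RNA per cell cannot be told apart.

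On the whole series, 61.6% to 79.8% of spots were well above background, and 0 to 3 spots an array were saturated. With the S154A mutant CDCA raised FXR targets: FABP6, which carries bile acids inside ileal cells, rose by 7.08 ± 0.57 (adjusted p = 0.000621) and OSTalpha, a subunit of the basolateral bile acid exporter, by 2.55 ± 0.18 (adjusted p = 0.000245). FGF19, the enterohepatic hormone, was detected on 0 of 3 arrays with DMSO, and its level with CDCA was at least 23.9-fold higher (adjusted p of the fit = 0.0120). FGF19 passed the filter described above only through S154A with CDCA, where it is high, so a higher value there was favoured by the filter. With S154D FABP6 had a change of 0.16 ± 0.57 and OSTalpha of 0.19 ± 0.18 (adjusted p-values of 0.879 and 0.494), and FGF19 was detected on 1 array with each treatment. Of the epithelial markers 8 of 10 were detected on all 12 arrays, among them KRT8, KRT18, CDH1 and the kidney genes CDH16 and PAX8. Of the mesenchymal markers 5 of 8 were, with COL1A2 on 0 arrays. Of the hepatocyte markers 4 of 8 were, ALB among them and APOB on 0 arrays, and of the leukocyte markers 3 of 6 were, with PTPRC on 0 arrays. Array 1 of S154A with DMSO had the highest share of spots above background, and values that rest on it are given below.

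Probe sequences are shown because probes of the same receptor that differ in their share of G and C gave different changes in S154D cells. Capitals mark G and C, and each sequence is the 60-base probe read 5′ to 3′ from the deposited scanner files, with human coordinates in build hg17. The files give no exon, intron or UTR for a probe, and each probe shown has an open reading frame over its whole length. NR2F6 (chr19:17207352-17207411, minus strand) had the probe richest in G and C of all receptors, at 70%, and NR2F2 (chr15:94678806-94681609, plus strand, a span that holds an intron) had 53.3%. The next 4 are the dimmer probes of NR2C1 (chr12:93954567-93954626, minus), ESRRG (chr1:213239026-213239085, minus), RARG (chr12:51891821-51891880, minus) and THRA (chr17:35499054-35499113, plus). PPARG (chr3:12433499-12433558, plus) is the probe of the receptor that varied least.
NR2F6: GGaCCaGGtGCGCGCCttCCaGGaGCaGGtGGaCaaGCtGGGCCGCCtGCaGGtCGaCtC
NR2F2: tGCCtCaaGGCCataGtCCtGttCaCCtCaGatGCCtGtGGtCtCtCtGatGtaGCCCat
NR2C1: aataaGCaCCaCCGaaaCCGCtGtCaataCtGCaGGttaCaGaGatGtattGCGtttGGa
ESRRG: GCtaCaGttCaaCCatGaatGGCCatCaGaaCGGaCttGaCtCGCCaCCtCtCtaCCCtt
RARG: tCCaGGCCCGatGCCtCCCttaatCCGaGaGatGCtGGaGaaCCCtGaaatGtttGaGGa
THRA: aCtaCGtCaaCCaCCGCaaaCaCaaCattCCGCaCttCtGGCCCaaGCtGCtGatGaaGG
THRB: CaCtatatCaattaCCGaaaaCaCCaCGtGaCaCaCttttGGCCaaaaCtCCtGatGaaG
PPARG: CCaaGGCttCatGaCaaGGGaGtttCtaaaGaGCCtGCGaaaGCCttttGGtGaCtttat
The THRA and THRB probes lie over the same stretch of both thyroid hormone receptors: shifted by 1 base, 45 of their 59 aligned bases are identical (76.3%). THRB (chr3:24139493-24139552, minus) has 41.7% G and C against 53.3% in this THRA probe, so the share of G and C differs between them within a shared stretch.

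COS-1 cells gave signal for most of the receptor family. Of the 40 receptors, 26 were detected on all 12 arrays (65%), 11 on some and 3 on none. The same share was 57.6% over all 30982 gene names and 75.7% over the 12418 names that are also green monkey RefSeq symbols. The lipid sensors LXR-beta (NR1H2), LXR-alpha (NR1H3), PPARA, PPARD, PPARG, VDR and the xenobiotic receptor CAR (NR1I3) were detected on all 12 arrays. So were the retinoid receptors RARA and RARG, the thyroid hormone receptors THRA and THRB, and the clock receptors NR1D1, NR1D2 and RORA. Subfamily NR1 thus had 14 of 17 members detected on all 12 arrays.

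The orphan receptors NR2C1, NR2C2, NR2F1, NR2F2 and NR2F6 made up the 5 of 9 NR2 members on all 12 arrays. Of the steroid receptor subfamily it was 5 of 8: the oestrogen receptor ESR1, the progesterone receptor PGR, the glucocorticoid receptor NR3C1 and the orphan oestrogen-related receptors ESRRA and ESRRG. Of the immediate early NR4 receptors NR4A1 was on all 12 arrays, and of NR5, regulators of steroid and bile acid synthesis, NR5A2 (LRH-1). For ESR1 and NR5A2 this rests on 1 probe each. The other ESR1 probes were detected on 0 arrays, and the other NR5A2 probes on 1 array each. The 3 receptors detected on 0 arrays were the xenobiotic receptor PXR (NR1I2), RARB and ESR2, and a human probe that stays at background does not show that the monkey transcript is absent. The 6 others that were not tested were RORB and NR5A1 (5 arrays each), NR2E1 (4), HNF4A (3), NR4A2 (2) and HNF4G (1), the HNF4 genes being known for the liver, gut and kidney.

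**Figure D1:**
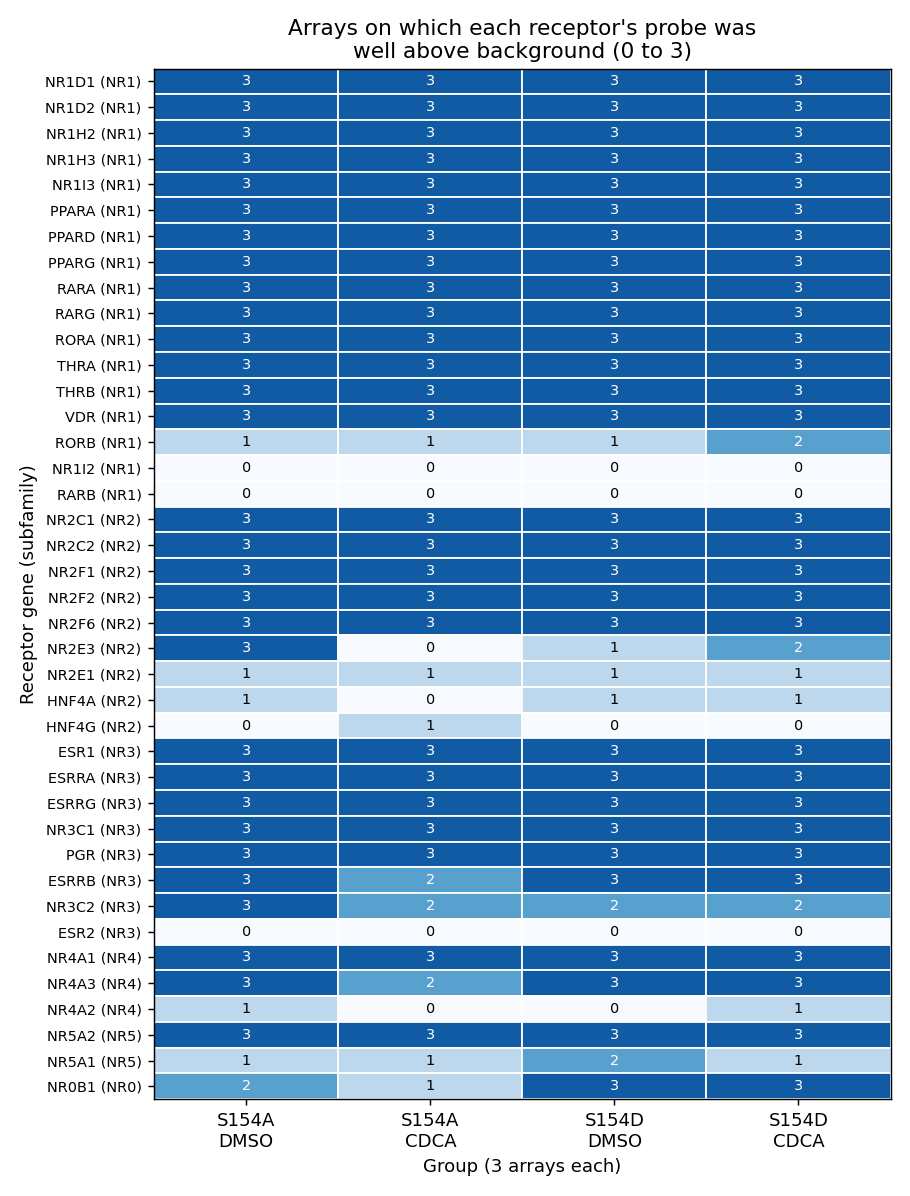
Number of arrays, of 3 in each group, on which the brightest probe of each of 40 receptors was well above background. Rows are receptors ordered by subfamily and columns are the 4 groups, and 26 rows hold 3 in all 4 columns.

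For the 26 receptors on all arrays, the range from the lowest to the highest array had a median of 0.76 on the log2 scale, and for all 17837 such genes it was also 0.76. PPARG, the adipocyte lipid sensor, had the narrowest range, from 0.77 over a median of 0.88 to 1.03, with a probe that is the mean of 10 spots an array, as that of VDR is, where the other tested receptors' probes have 1 spot. PPARD, a widely expressed regulator of fatty acid oxidation, ran from 1.45 to 1.74, with a median of 1.59. THRA ran from 2.29 to 2.59, with a median of 2.44, and LXR-alpha (NR1H3) from -0.76 to -0.44, with a median of -0.60. The probes used for these 4 receptors thus ranged over at most 0.32. A dimmer probe of THRA, annotated to another transcript record, ranged over 1.03, and a dimmer one of PPARD over 0.64. The widest range among the 26 was that of RARA, from 0.39 over a median of 1.37 to 2.27. The 5 tested receptors that were not detected on every array had a median range of 1.45 (1.85 over all 2518 such genes), and the 9 that were not tested one of 2.30.

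Dim receptors stood highest on the same array. For 7 of the 9 untested receptors the highest of the 12 arrays was array 1 of S154A with DMSO, against 38.9% of all 10627 untested names. HNF4A, for example, was at -3.97 there and at -7.32 and -7.49 on the other arrays of that group. Of the 5 tested receptors not detected on all arrays, 3 were highest on it (31.5% of all such genes), and of the 26 on all arrays, 3 were (7.05%).

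In S154A cells, where FXR targets rose with CDCA, none of the 31 tested receptors passed the test. Of 31 receptors 0 were called, where 0.133% of all genes tested were, which is 27 genes. At an unadjusted p under 0.05 there were 5 receptors, or 16.1% against a background of 6.04%, and 4 of the 5 were lower with CDCA, where 4.33% of genes were. The CDCA and DMSO arrays of 5 receptors did not overlap, against 11.9% of all genes, and 4 of these also had an unadjusted p under 0.05, against 4.89%. The median change of the 31 was -0.01, beside -0.04 over all genes. For 19 of the 31 the interval lay wholly within a 1.5-fold change either way (56.4% of all genes), and for 25 within 2-fold. PPARG had a change of 0.01 (interval -0.19 to 0.21), LXR-alpha (NR1H3) of 0.01 (-0.20 to 0.22), VDR of -0.02 (-0.25 to 0.21) and the glucocorticoid receptor NR3C1 of 0.06 (-0.25 to 0.37).

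NR4A3, an immediate early orphan receptor, had levels of -4.26, -4.80 and -4.53 with DMSO and of -5.59, -5.48 and -4.98 with CDCA. The 3 CDCA arrays lay below the 3 DMSO arrays, and array 2 with CDCA was not well above background. The change was -0.82 ± 0.19, with an adjusted p of 0.370. It was -0.71 within slide 1, -1.05 within slide 3, -0.68 without array 1 of DMSO, and -0.29 with normexp background correction.

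NR2E3, the photoreceptor-specific orphan receptor, had levels of -4.19, -5.00 and -5.24 with DMSO and of -5.94, -6.66 and -6.40 with CDCA. With DMSO it was detected on 3 arrays and with CDCA on 0, so the CDCA level is only a bound. For this bound each CDCA array took the higher of its NR2E3 level and its dimmest spot well above background. The dimmest spot was the higher on array 2 alone, so arrays 1 and 3 entered at their own undetected levels. On this reckoning NR2E3 was at least 2.02-fold lower with CDCA, and at least 1.63-fold without array 1 of DMSO. NR2E3 passed the filter only through the DMSO group, where it is high, so a lower value elsewhere was favoured by the filter. The fitted change of -1.52 ± 0.37 had an adjusted p of 0.402. It was -1.21 without array 1 of DMSO, -2.21 within slide 1, -0.70 within slide 3, and -0.52 with normexp background correction. In S154D cells NR2E3 was detected on 1 DMSO array and 2 CDCA arrays, and the groups overlapped.

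RARA, the retinoic acid receptor alpha, had levels of 0.75, 0.67 and 1.11 with DMSO and of 1.83, 1.68 and 2.27 with CDCA. All CDCA arrays lay above all DMSO arrays, and the change was 1.08 ± 0.29 (adjusted p = 0.497). A dimmer RARA probe 186 bases away gave -2.24, -1.38 and -2.35 with DMSO and -2.18, -1.72 and -2.09 with CDCA, which overlap, and a change of -0.01 ± 0.26 (interval -0.59 to 0.58). The brighter probe's difference was thus not seen with the probe next to it, and with the mean of both probes the change was 0.54.

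NR0B1 (DAX1), a receptor without a DNA-binding domain that represses its relatives, had levels of -4.64, -5.04 and -5.39 with DMSO and of -5.92, -6.09 and -5.42 with CDCA. The groups did not overlap, with array 3 of both treatments close together, and the change was -0.78 ± 0.26 (adjusted p = 0.780) and -0.59 without array 1 of DMSO. ESRRB had a change of -0.52 ± 0.20 with overlapping arrays. The mineralocorticoid receptor NR3C2 gave -4.09, -3.88 and -4.85 against -5.50, -6.81 and -4.93, a change of -1.48 ± 0.88 that the spread between arrays does not separate from 0 (interval -3.43 to 0.48). NR3C2 was detected on 3 arrays of S154A with DMSO and on 2 arrays of each other group. It thus passed the filter only through the group where it is high, so a lower value elsewhere was favoured by the filter, as for NR2E3. NR0B1, ESRRB, NR3C2, NR4A3 and NR2E3 are the 5 tested receptors that were not detected on all arrays. Of these 5, 3 were highest of all arrays on array 1 of DMSO, which had the highest share of spots above background, and the part of that share in these differences was not tested beyond the values without that array. Over all 2518 such genes the median change was -0.24, beside -0.03 over the 17837 genes on all arrays.

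**Figure D2:**
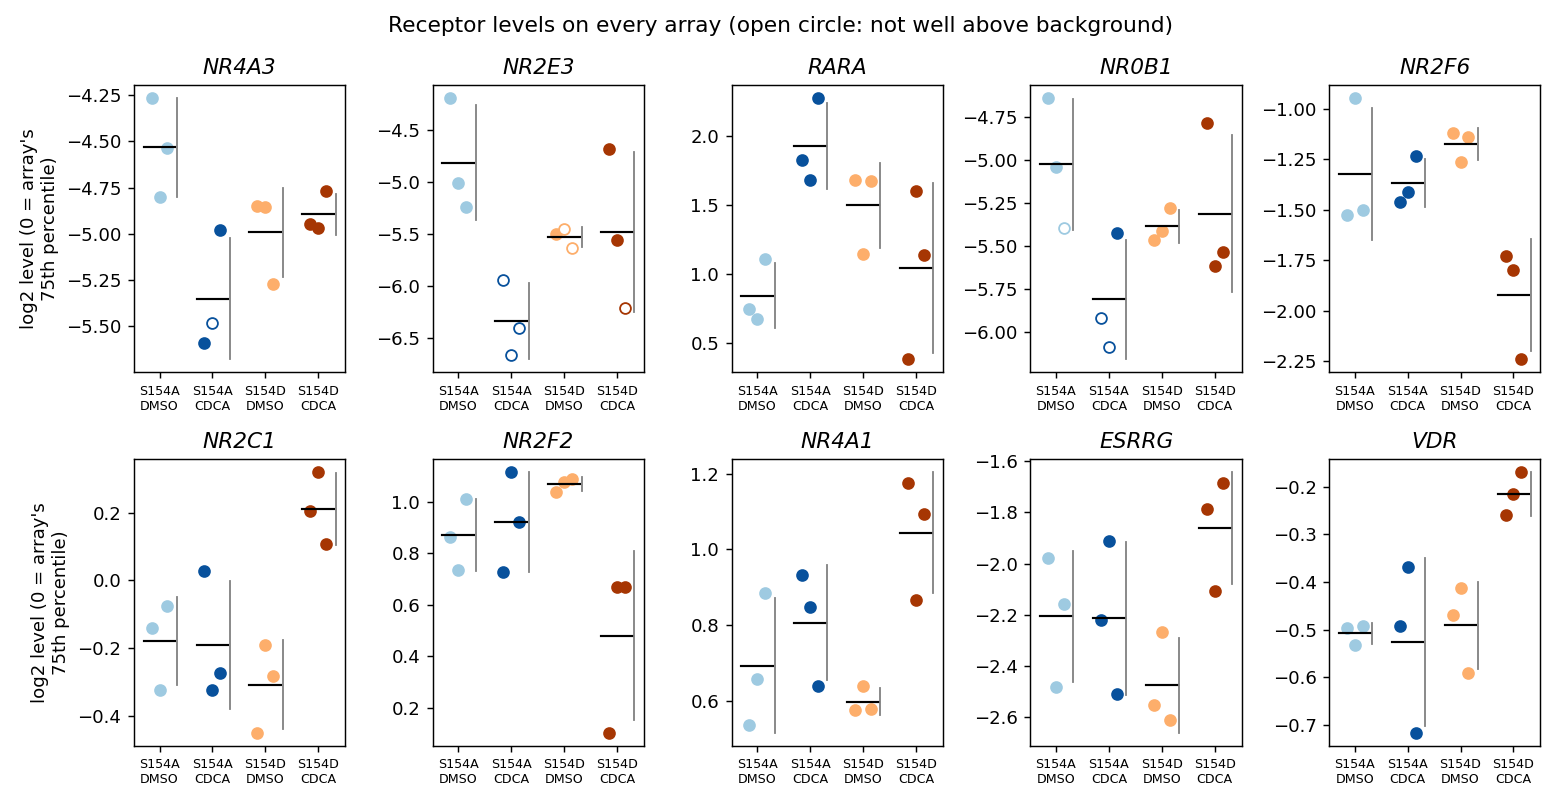
Levels of the 10 receptors whose arrays did not overlap between CDCA and DMSO with an unadjusted p under 0.05, in S154A cells (NR4A3, NR2E3, RARA, NR0B1) or S154D cells (the other 6). Each point is an array (open where not well above background), the line is the mean of 3 arrays, the grey bar is ± 1 SD, and the vertical axes are log2 levels that differ between panels.

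In S154D cells 3 orphan receptors passed the test with CDCA. NR2F6 fell by 0.75 and NR2F2 by 0.59, and NR2C1 rose by 0.52, a fold of 1.43. These are 3 of 31 receptors (9.68%), where 10.2% of all genes tested were called, so the receptors' share lay near the background. In all genes 6.45% were called higher and 3.74% lower, of 2073 genes in all. With median centring the split was 1819 higher and 173 lower, in place of 1312 and 761, as the median of all genes moved from -0.01 to 0.10. At an unadjusted p under 0.05 there were 7 receptors (22.6% against 30% of all genes), and the median change of the 31 was 0.04, beside -0.01.

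NR2F6, which represses other receptors and dampens T cell activation, had levels of -1.12, -1.27 and -1.14 with DMSO and of -1.73, -1.80 and -2.24 with CDCA. All CDCA arrays lay below all DMSO arrays, and the change was -0.75 ± 0.18 (adjusted p = 0.0347). NR2F2 (COUP-TFII), a regulator of vessel and organ development, had levels of 1.04, 1.08 and 1.09 against 0.10, 0.67 and 0.67. The DMSO arrays were close together, and array 1 with CDCA was the lowest of all 12. The change was -0.59 ± 0.16 (adjusted p = 0.0485), and -0.40 without that array. NR2C1 (TR2), a repressor of direct repeats, had levels of -0.45, -0.19 and -0.28 against 0.21, 0.32 and 0.11. Its CDCA arrays were all higher, with a change of 0.52 ± 0.13 (adjusted p = 0.0357).

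The calls did not hold under every treatment of the arrays. With median centring the adjusted p was 0.0748 for NR2F6 and 0.0966 for NR2F2, while NR2C1 kept its call at 0.0264. The S154D arrays with CDCA were on slides 2 and 3, those with DMSO on slides 1, 3 and 4. Within slide 3, which held an array of each group, the changes were -0.66 for NR2F6, -0.42 for NR2F2 and 0.60 for NR2C1. With slide as a block 0 receptors and 0 genes were called, the smallest adjusted p of a receptor being 0.138. Leaving out S154D DMSO array 1 or 3, or S154D CDCA array 2 or 3, also left 0 of the receptors called. Leaving out S154A DMSO array 1 or 3, or S154D CDCA array 1, left NR2F6 alone, and NR2F2 kept its call only without S154A CDCA array 2. Of the epithelial markers 2 of 8 were called higher in the same cells, CLDN1 by 0.63 and TACSTD1 by 0.51. Of the mesenchymal markers 1 of 6 was called lower, COL1A1 by 0.56. Over all genes 6.45% were called higher and 3.74% lower, and 0 genes were called after the correction for probe GC given below. The summed level of the epithelial markers was 130 to 137 times the array's percentile with DMSO and 105 to 122 times with CDCA, and that of the mesenchymal markers 169 to 202 and 152 to 181 times. Such sums follow the brightest genes, here VIM in the mesenchymal sum and KRT18 and KRT8 in the epithelial one. KRT18 had means of 6.22 with DMSO and 6.05 with CDCA, and KRT8 of 5.46 and 5.05. The mean of PAX8 was also lower with CDCA, while those of CLDN1, TACSTD1, CDH1, CDH16 and KRT19 were higher. Of hepatocyte and leukocyte markers 0 of 4 each were called, with sums of 3.07 to 4.26 against 3.15 to 3.94 and of 0.727 to 0.930 against 0.704 to 0.903, and the part of the markers in the receptors' values was not tested.

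NR4A1 (Nur77), an immediate early receptor, had levels of 0.58, 0.64 and 0.58 with DMSO and of 1.18, 0.87 and 1.09 with CDCA. All CDCA arrays were higher, and the change of 0.45 ± 0.13 had an adjusted p of 0.0512, and of 0.0401 where only genes detected on all 12 arrays were tested. ESRRG, a regulator of mitochondrial genes, had levels of -2.55, -2.27 and -2.61 against -1.79, -2.11 and -1.69. The arrays did not overlap here either, and the change was 0.62 ± 0.19 (adjusted p = 0.0641, and 0.0314 with median centring). VDR, which senses vitamin D and the bile acid lithocholic acid, had levels of -0.47, -0.41 and -0.59 against -0.26, -0.22 and -0.17. Its change was 0.28 ± 0.10 (adjusted p = 0.110), again without overlap. In 10 of the 31 receptors the arrays of both treatments did not overlap, against 33.7% of all genes, 6 of them higher and 4 lower with CDCA. The 6 receptors given by array here also had an unadjusted p under 0.05, against 26.2%.

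**Figure D3:**
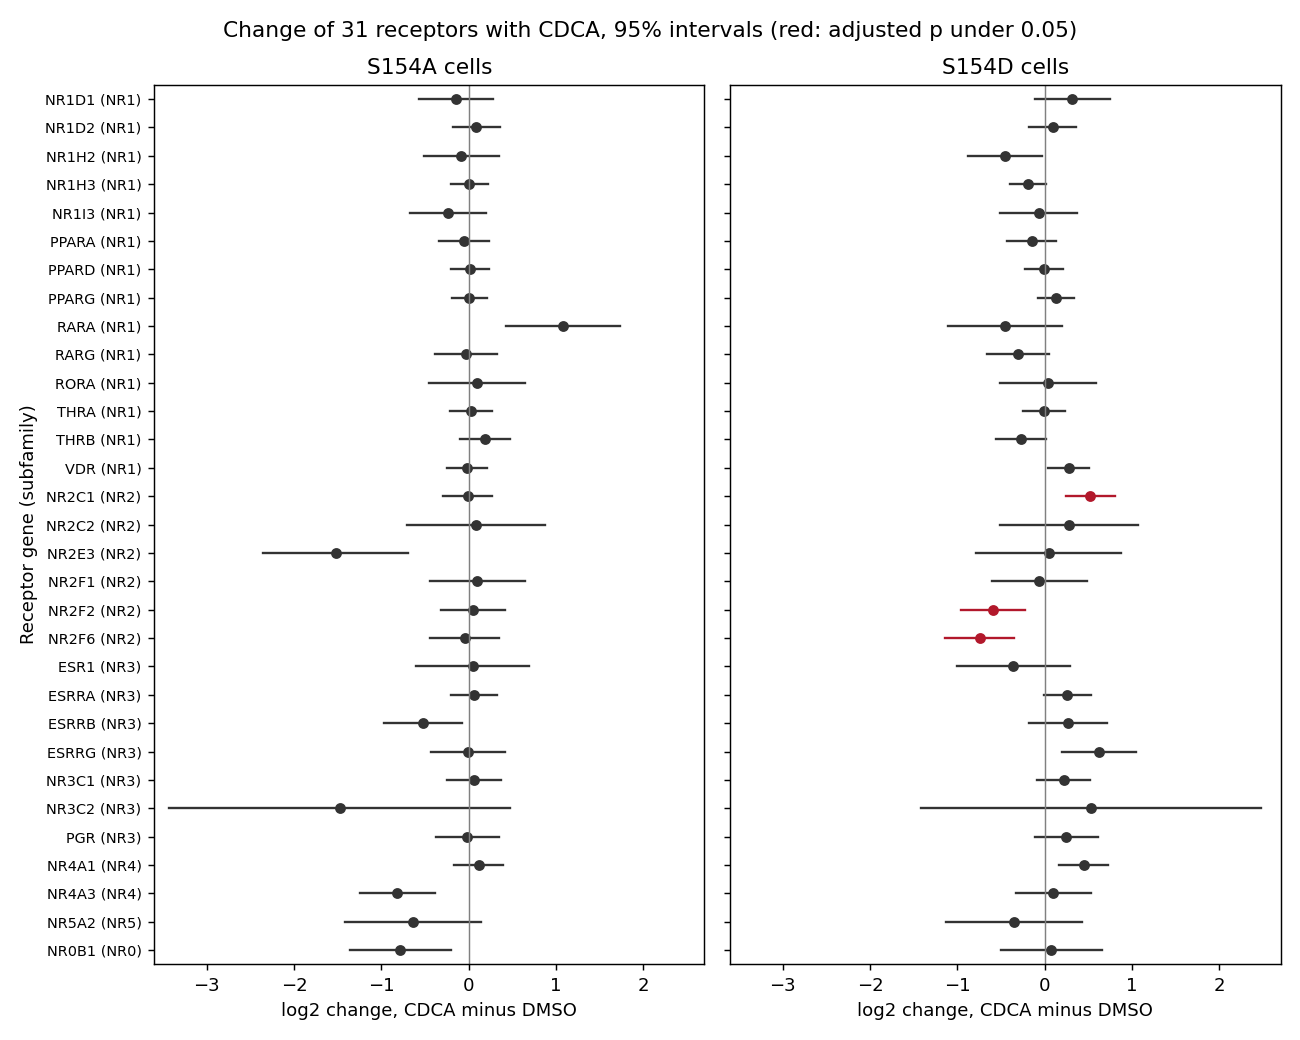
Change of each of 31 receptors with CDCA (log2, CDCA minus DMSO) in S154A cells on the left and S154D cells on the right, as the fitted change (point) with its 95% interval (line). Red marks an adjusted p under 0.05, which NR2C1, NR2F2 and NR2F6 reached in S154D cells and no receptor in S154A cells.

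In S154D cells the receptors with the probes richest in G and C had mostly negative changes. Of all genes 49.1% had a positive change. With probes under 45% G and C it was 8 of 12 receptors (median change 0.15), at 45% it was 8 of 9 (median 0.13), and above 45% it was 1 of 10 (median -0.35). Spearman's rho of the change with the share of G and C was -0.65 across the 31 receptors and -0.56 across all 20355 genes, as descriptions, since these values share the same 6 arrays. In S154A cells rho was -0.29 and -0.11. The slope in S154D cells was thus present over all genes tested.

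Each array was then corrected for the trend with probe GC of its deviations from the probes' means over the arrays. After this, 0 receptors and 0 genes were called in S154D cells, with 5 receptors (16.1%) and 19.2% of genes at an unadjusted p under 0.05. NR2F6 then had a change of -0.28 (adjusted p = 0.491), NR2F2 of -0.32 (adjusted p = 0.388), NR2C1 of 0.20 (adjusted p = 0.345) and ESRRG of 0.30 (adjusted p = 0.377). NR4A1, whose probe has 26.7% G and C, turned to -0.19. VDR, whose probe is at 45%, had a change of 0.32 (adjusted p = 0.172). The correction also takes out any change of the RNA that runs with probe GC, and the part of either in these values cannot be told apart.

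**Figure D4:**
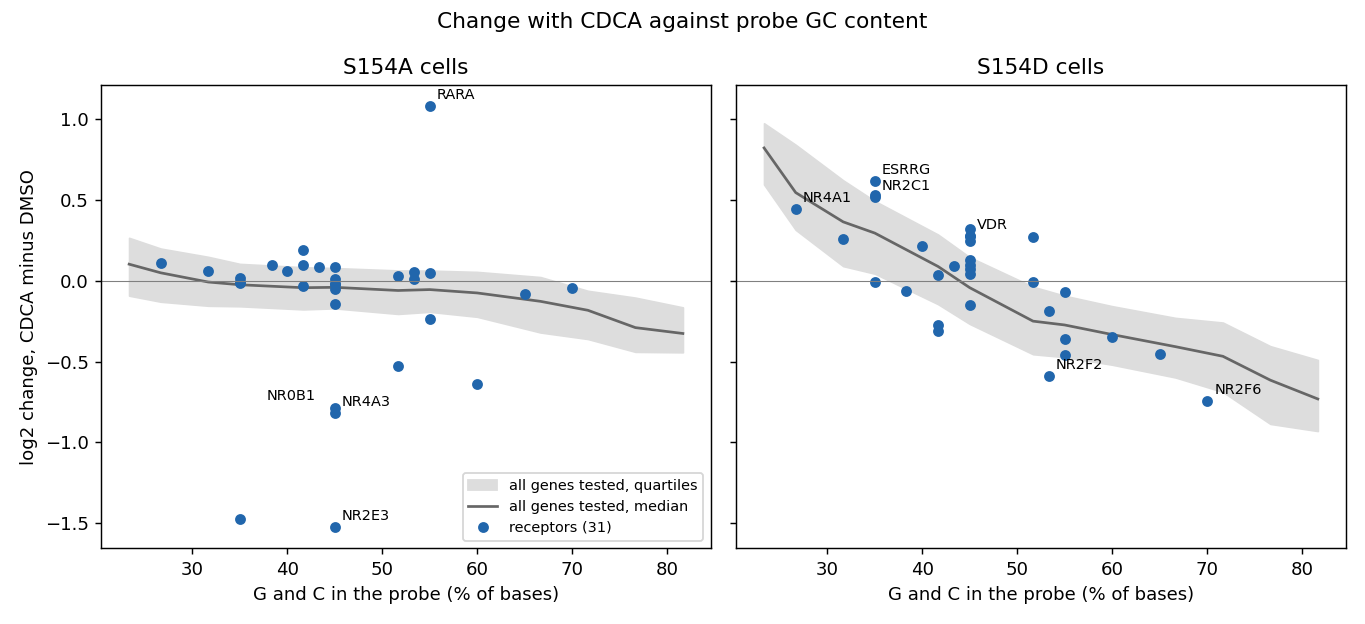
Change with CDCA against the share of G and C in the probe, for S154A cells on the left and S154D cells on the right. Blue points are 31 receptors, and the grey line and band are the median and quartiles of all genes tested in 5-point bins of at least 20 genes. The receptors follow the falling grey line in S154D cells.

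Receptors with more than 1 probe above the filter gave the same comparison within a gene. There were 13 such receptors. In S154D cells the probe with less G and C had the more positive change in 11 of 13 (70.5% of 4384 such genes), and in S154A cells in 4 of 13 (50.9%). Both probes had opposite signs in 6 of the 13 in S154D cells, against 38.9% of all genes with more than 1 probe.

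NR2C1 is 1 of these: its used probe, at 35% G and C, rose by 0.52, and the printed probe at 45% had a change of -0.07 ± 0.14. That probe gave -1.99, -2.09 and -2.05 with DMSO and -2.32, -1.95 and -2.07 with CDCA, which overlap. The printed probe of NR2F2 fell as above, and a probe at 35% gave 0.50, 0.54 and 0.39 with DMSO and 0.90, 0.62 and 0.87 with CDCA. This is a change of 0.32 ± 0.11 (adjusted p = 0.0802) with all CDCA arrays higher, so both NR2F2 probes separated the treatments, in opposite directions.

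ESRRG had a change of 0.62 at 35% G and C and of -0.88 ± 0.43 (interval -1.83 to 0.06) with the printed probe at 51.7%, which lay between -5.68 and -4.17 with DMSO and between -6.21 and -5.53 with CDCA. The DMSO and CDCA arrays of the printed ESRRG probe overlapped. That probe was detected on 8 of 12 arrays, and on 2 of 3 in each S154D group. It passed the filter only through S154A with CDCA. On array 1 of S154D with CDCA it was at -6.21, below that array's dimmest spot well above background, at -6.12. Its negative change in S154D cells thus rests on values near background, and its pair is among those counted above. The NR4A1 probes, at 26.7% and 45%, had changes of 0.45 and -0.40 ± 0.37. For THRA, the used probe at 51.7% had a change of -0.01 in S154D cells. The printed THRA probe, at 53.3%, had levels of -1.42, -1.45 and -1.35 with DMSO and of -1.70, -2.05 and -2.37 with CDCA. Its CDCA arrays were all lower, with a change of -0.63 ± 0.16 (adjusted p = 0.0375 over all probes kept), while the GC of both THRA probes is close. The THRA probes are annotated to different transcript records, as are the NR4A1 probes, and whether they measure different isoforms was not tested. The used THRA probe lies 700 bases from that of NR1D1 on the opposite strand of chromosome 17, genes whose 3′ ends are known to overlap. The printed RARG probe (53.3%) had a change of -0.79 ± 0.27 (adjusted p = 0.0773) and the used one (41.7%) of -0.31. NR1H2 and NR1D2 were the 2 receptors whose probe with more G and C had the more positive change.

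**Figure D5:**
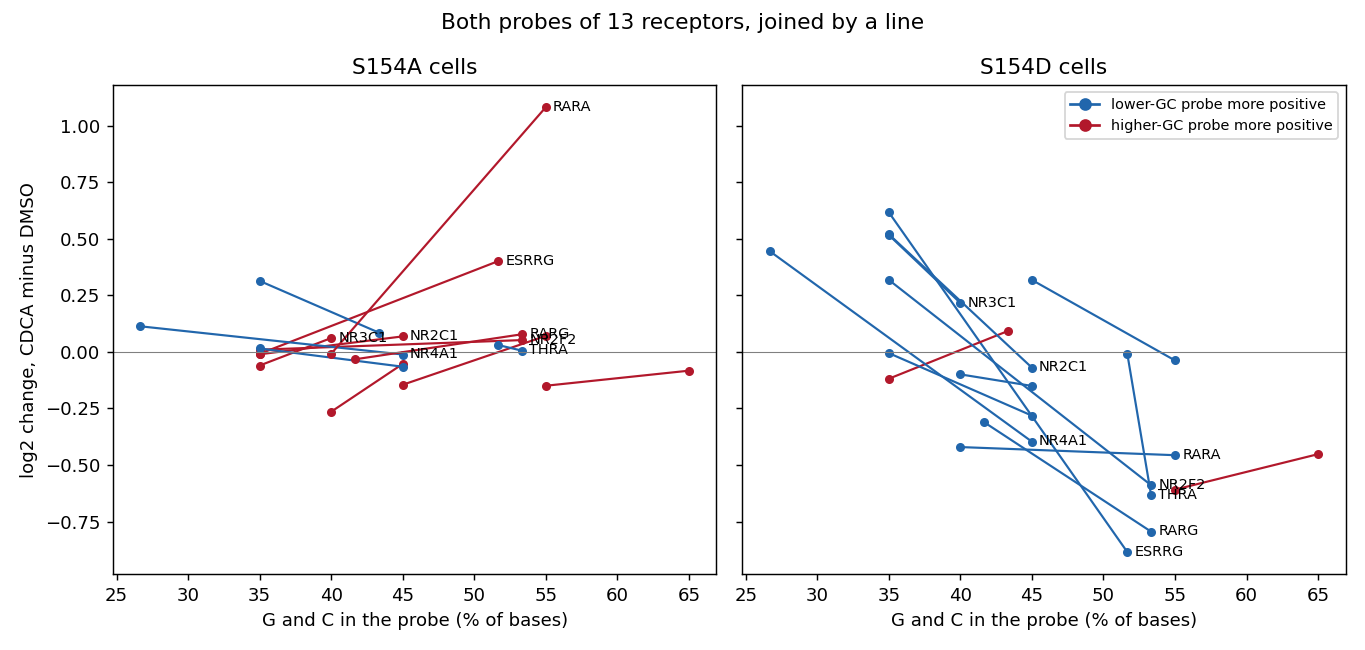
Change with CDCA of both probes of 13 receptors against the share of G and C in each probe, joined by a line, in S154A cells on the left and S154D cells on the right. Blue lines mark receptors whose probe with less G and C had the more positive change, which are 4 in S154A cells and 11 in S154D cells.

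The mutants were also compared directly. With DMSO, S154D and S154A differed in 0 of 31 receptors and in 0% of all genes by limma, with 2 receptors (6.45%) and 4.34% of genes at an unadjusted p under 0.05. These were NR4A3, at -0.46 ± 0.19, and RARA, at 0.65 ± 0.29, both with adjusted p = 0.996. With CDCA 0 receptors were called, beside 0.403% of genes, and 10 receptors (32.3%) had an unadjusted p under 0.05, against 23.6%. The largest difference among these 10 was that of RARA, at -0.88 ± 0.29 (adjusted p = 0.127), and at -0.33 ± 0.26 with its dimmer probe. After GC correction 7 receptors (22.6%) had an unadjusted p under 0.05, against 19.1% of genes. Before it, rho of the difference with probe GC was -0.38 across the receptors and -0.39 across all genes. VDR was higher in S154D with CDCA on all arrays, by 0.31 ± 0.10 (adjusted p = 0.130), and by 0.34 after GC correction.

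Whether the mutants responded to CDCA unlike each other was tested as the S154D response minus the S154A response. This called 0 receptors, where 0.147% of genes were called, and 10 receptors (32.3%) had an unadjusted p under 0.05, against 22.4%. After GC correction it was 7 receptors (22.6%), against 16.4% of genes. Before it, rho with probe GC was -0.38 across the receptors and -0.40 across all genes. Without the correction the smallest adjusted p was that of RARA, with a difference of -1.54 ± 0.41 (adjusted p = 0.0956), while its dimmer probe had one of -0.41 ± 0.37. NR4A3 followed at 0.92 ± 0.27 (adjusted p = 0.112). For NR2C1, called in S154D cells, the difference was 0.53 ± 0.18 (interval 0.13 to 0.93, adjusted p = 0.137), and -0.14 with its dimmer probe. A call in 1 mutant is thus not shown here to be a difference between the mutants.

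Known target genes of the receptors were described from lists. With CDCA in S154A cells 0 genes passed the test in the lists for LXR (10 tested), PPAR (11), retinoic acid receptors (10), VDR (3), the glucocorticoid receptor (9), PXR and CAR (8), the clock (14), ERR (9), oestrogen receptor (8), thyroid hormone receptors (6) and HNF4A (3). Of 9 FXR targets 6 were tested and 5 called, where 0.133% of all genes were. FGF19 and OSTbeta passed the filter only through S154A with CDCA, where they are high. The medians lay between -0.21 for HNF4A targets and 0.16 for LXR targets, beside -0.04 over all genes. CYP24A1, the vitamin D-degrading enzyme, had a change of 0.49 ± 0.19 (adjusted p = 0.820) without overlap of arrays, and the retinoid-degrading CYP26B1 one of 1.04 ± 0.56 (adjusted p = 0.877). CYP26B1 was detected on 2 of 3 arrays in each S154A group and passed the filter only through the S154D groups. Its mean with DMSO was -5.84, where the dimmest spots well above background on those arrays lay at -6.08, -5.57 and -5.52.

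In S154D cells the lists had 0 to 2 called genes each. Together the receptors' target lists had 10 of 89 genes called (11.2%), near the 10.2% of all genes. FASN, fatty acid synthase and an LXR target, was 1 of 10, with levels of 1.24, 0.99 and 1.15 with DMSO and of 0.64, 0.39 and -0.04 with CDCA. It fell by 0.80, without overlap (SE 0.18, adjusted p = 0.0323). Of the PPAR list 2 of 11 rose, the medium-chain acyl-CoA dehydrogenase ACADM by 0.54 and the lipid droplet protein ADFP by 0.34. Of the clock list 2 of 14 rose, ARNTL by 0.52 and PER3 by 0.46, although the mean of PER3's probes gave -0.050. CYCS, cytochrome c, was the 1 of 9 ERR targets that rose, by 0.56.

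Of the remaining S154D calls, the glucocorticoid target TSC22D3 fell by 0.59 (1 of 9), and the oestrogen targets CTSD and CCND1 fell by 0.73 and 0.61 (2 of 8). The thyroid hormone target MBP rose by 0.43 (1 of 6). Among 23 coregulators, 22 of them detected on all 12 arrays, 0 were called in S154A cells, where 0.133% of all genes were. In S154D cells 2 of the 23 were called, where 10.2% of all genes were. HDAC3, the deacetylase of the NCoR complex, fell by 0.54 and the arginine methyltransferase PRMT1 by 0.40. The list medians lay between -0.22 (LXR) and 0.20 (clock), and after GC correction 0 genes of any list were called. FASN then had a change of -0.46 and HDAC3 of -0.50, with adjusted p-values of 0.172 and 0.144, and PRMT1 of -0.093.

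DHRS3, a retinaldehyde reductase that retinoic acid induces, was the receptor target apart from those of FXR that differed between mutants. It was 1 of 89 genes tested in the receptors' target lists (1.12%) with CDCA, where 0.403% of all genes were called. With CDCA the DHRS3 levels were -0.75, -0.95 and -0.65 in S154A cells and -1.71, -1.49 and -1.58 in S154D cells. All S154D arrays were lower, with a difference of -0.81 ± 0.13 (adjusted p = 0.0310) and of -0.78 after GC correction (adjusted p = 0.0434). With slide as a block the difference was -0.78 (adjusted p = 0.301), and the adjusted p was 0.0564 with normexp background correction, 0.0633 with median centring and 0.0717 with the replicate number as a block. The call was also lost without S154A DMSO array 2, S154A CDCA array 1 or 3, S154D DMSO array 1, or S154D CDCA array 2 or 3, with adjusted p-values of 0.0372 to 0.182 over the 12 arrays left out. With DMSO the levels were -0.90, -1.13 and -1.24 against -1.23, -1.26 and -1.01, which overlap.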

How the data were processed

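Per the file headers, the authors' scanner files hold spot intensity values that Agilent Feature Extraction 9.5.3.1 had background-subtracted. The submitters' processing notes name version 12. The deposited series table repeats the same intensity values with no scaling between arrays. The deposited flags (0 or 1, a score per spot) mark spots well above background, outliers and controls. Here outlier and control spots were left out, spots of a probe were averaged, and the log2 intensity was taken minus each array's 75th percentile. The fit was a linear model of the 4 group means in limma 3.58.1 under R 4.3.3 (with the package data.table, version 1.17.8), with two-sided tests, and p-values were adjusted by Benjamini-Hochberg over the 20355 genes tested. No receptor tested lacked a value on any array. The number of arrays limits the precision. The fit was checked on simulated data. The GC correction takes, per array, the deviation of each probe from its mean over the arrays. It subtracts a smooth curve of these deviations on probe GC over the probes kept (loess, span 0.5), and each array keeps its median deviation. Normexp used an offset of 50.

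Values are printed by array for receptors that were called, or whose arrays did not overlap with an unadjusted p under 0.05 in a CDCA comparison. The same was done where detection differed by 3 arrays between compared groups. From target lists, called genes are named, or otherwise those of largest change. THRA's second probe, ESRRB, NR3C2 and HNF4A were named after their values were seen. The receptors, target lists and tests were chosen with earlier results of these data known. The slides and scan days are read from the scanner files, and the 2 arrays of slide 4 were scanned on another day than the others. Alternatives were the background correction, the scaling, the filter, the choice of probe, slide and replicate as blocks, the GC correction, the samples fitted and the moderation.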

Additional observations from a re-analysis of the deposited data

Results flagged for a closer look

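FXR targets responded to CDCA differently in the mutants, by the interaction term of the limma fit (S154D response minus S154A response): FABP6 by -6.92 (adjusted p = 0.0209), OSTalpha by -2.36 (adjusted p = 0.0209), FETUB by -1.80 (adjusted p = 0.0360) and SDC1 by -1.23 (adjusted p = 0.0372). With slide as a block each of these had an adjusted p of 0.297. Leaving out 1 array gave adjusted p-values of 0.00873 to 0.102 for FABP6, 0.00873 to 0.0842 for OSTalpha, 0.0442 to 0.115 for FETUB and 0.0448 to 0.118 for SDC1. The call of SDC1 was kept only without S154A CDCA array 1, that of FETUB without this array or S154D CDCA array 1, and that of FABP6 without these or S154A DMSO array 1. That of OSTalpha was lost without S154A DMSO array 1 or 3, S154A CDCA array 2 or 3, S154D DMSO array 1, or S154D CDCA array 2 or 3. FABP6 was well above background on 3 of 6 S154D arrays, so its value is not exact. No receptor other than FXR and RXR was flagged by this test, and with 3 arrays a group no array was tested as an outlier.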

How the results depend on the processing

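The count of receptors called was 0 under all alternatives run for CDCA in S154A cells, for the mutants compared and for the difference of responses. In S154D cells, where it was 3, it was 0 with the series table unscaled, with no filter and with only the 2 groups compared. It was also 0 with GC correction and with slide as a block (with or without GC correction). Leaving out slide 2 left array 2 as the single S154D array with CDCA, so that alternative is set aside in these counts. With the mean of a gene's probes the count was 1. With median centring it was 2, NR2C1 and ESRRG. Leaving out 1 array gave 0 to 3. Same-numbered replicates showed correlations of -0.35 to 0.51, and the labels do not say what the number marks, so it was not taken as a pairing. With the replicate block, alone or with GC correction, 0 receptors were called in S154D cells, and the smallest adjusted p of a receptor was 0.0578 without GC correction. NR4A1 turned to -0.19 with GC correction, alone and with the replicate block, and to -0.35 with GC correction and slide as a block. With the mean of the probes ESRRG turned to -0.13 and PER3 to -0.050. The count of receptors on all 12 arrays was 26, and 33 with the milder flag of signal above background. The number of arrays and the nearness of dim probes to background limit these results.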
